A study of Mus musculus with 19 samples.

Results

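CpG-dense 5-hmC peaks away from promoters were examined in mouse cardiomyocytes (CMCs). These are autosomal peaks with 4 or more CpG dinucleotides per 100 bp of the mm10 reference under the peak and a centre more than 2 kb from every protein-coding transcription start site (TSS). The rule used the reference sequence and the gene annotation, and no property of the signal beyond the presence of a peak. It selected 6715 of the 989991 autosomal peaks in 8 peak lists. A further 926667 peaks lay more than 2 kb from a TSS and were less CpG-dense, and these served as the other distal peaks. Another 5043 CpG-dense peaks lay within 2 kb of a TSS and were left aside.

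The peaks came from hydroxymethylated DNA immunoprecipitation and sequencing (hMeDIP-seq) of CMCs isolated from male C57BL/6J mice. The 4 points were E14.5 embryos, neonatal pups 1 to 2 days old, 2-month-old adults (Adult) and adults examined 1 week after surgery for transverse aortic constriction (TAC), in which a suture around the aortic arch puts the left ventricle under pressure overload. Each point had 2 biological replicates and 1 peak list per replicate. Embryonic and neonatal CMCs were enriched from digested ventricles by removing adherent cells, adult and TAC CMCs by perfusion of the left ventricle and sedimentation, so the age of the animals and the way the cells were isolated cannot be told apart, and some non-myocytes remained in each preparation. No sham-operated group was among the lists analysed here, so the effect of surgery cannot be told apart from that of the constriction.

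5-Hydroxymethylcytosine (5-hmC) is made from 5-methylcytosine by the TET dioxygenases, and in mammalian DNA both marks sit almost wholly on the CpG dinucleotide. Most of the mouse genome is poor in CpG, because methylated cytosine is lost by deamination over evolution. CpG-dense DNA is found mainly in CpG islands, which often mark promoters and are usually unmethylated there, in some coding exons, in young repeats and in tandem repeats. Islands away from annotated promoters can be methylated in a tissue, which makes them possible substrates of the TET enzymes.

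TAC replicate 2 stood apart from the other 7 lists, and some results that rest on it are given with and without it. Others, such as the tests of place over points and the loci shared by all 8 samples, are given with it only. Around the CpG-dense distal peaks of the other samples, its list held 4.496 peak centres within 200 bp and 13.3 at 400 to 700 bp per 100 peaks. The 7 remaining lists held 25.6 to 33.4 within 200 bp and 5.61 to 10.1 at 400 to 700 bp. Autosomal peaks per list ranged from 103752 to 151247. The read depth is unknown, because the lists hold positions without read numbers, and the score of every peak is 1.

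The sequences under the densest loci are shown first, because CpG density is the property that defines the group. A locus is the union of overlapping peaks of all 8 lists. For each locus the 300 bp window with most CpG is printed on the + strand of mm10, with CpG in capitals and all other bases in lower case. The window was taken from the whole locus, so it is not under a peak in each sample named for the locus. The first 2 come from the densest loci among those that held a peak in all 8 samples. The windows themselves lay under a peak in 6 samples at Unc45b and in 7 at Ccdc102a. The Unc45b window, with 51 CpG, was made of a tandem repeat, in which 87.3% of bases were identical to the base 17 bp further on. In the other windows printed the best shift between 5 and 60 bp gave 37.6% to 47.2% identical bases.
Unc45b intron, chr11:82931037-82931336: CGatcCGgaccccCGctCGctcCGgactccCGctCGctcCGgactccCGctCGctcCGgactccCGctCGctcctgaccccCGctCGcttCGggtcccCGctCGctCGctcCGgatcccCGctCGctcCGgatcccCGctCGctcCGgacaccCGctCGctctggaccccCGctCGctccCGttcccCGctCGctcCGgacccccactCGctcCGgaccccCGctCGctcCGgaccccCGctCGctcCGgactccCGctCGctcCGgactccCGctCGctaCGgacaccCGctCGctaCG
Ccdc102a, chr8:94913076-94913375: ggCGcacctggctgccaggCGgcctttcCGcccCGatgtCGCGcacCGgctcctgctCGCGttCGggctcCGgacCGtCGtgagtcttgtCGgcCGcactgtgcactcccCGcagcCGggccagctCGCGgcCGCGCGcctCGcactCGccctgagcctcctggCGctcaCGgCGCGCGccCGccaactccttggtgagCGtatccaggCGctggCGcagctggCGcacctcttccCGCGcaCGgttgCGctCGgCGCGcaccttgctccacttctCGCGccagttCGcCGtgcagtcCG

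The next 4 windows come from loci called between E14.5 and Adult, which means that a peak was present in both replicates of 1 point and in neither replicate of the other. The windows of Gal3st3 and Klhl31 belong to loci with a peak in Adult and not in E14.5. That between genes near Arhgap5 and that of Basp1 belong to loci with a peak in E14.5 and not in Adult. The Basp1 window itself lay under a peak of E14.5 replicate 1 and not of E14.5 replicate 2. They held 53, 46, 36 and 55 CpG.
Gal3st3, chr19:5307300-5307599: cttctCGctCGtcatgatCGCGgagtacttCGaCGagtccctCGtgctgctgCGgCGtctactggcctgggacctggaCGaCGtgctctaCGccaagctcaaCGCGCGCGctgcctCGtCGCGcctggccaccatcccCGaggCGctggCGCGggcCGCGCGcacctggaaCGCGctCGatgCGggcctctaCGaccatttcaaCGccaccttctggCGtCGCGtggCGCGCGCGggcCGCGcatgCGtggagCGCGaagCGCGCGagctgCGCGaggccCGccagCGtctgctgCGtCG
Klhl31, chr9:77655302-77655601: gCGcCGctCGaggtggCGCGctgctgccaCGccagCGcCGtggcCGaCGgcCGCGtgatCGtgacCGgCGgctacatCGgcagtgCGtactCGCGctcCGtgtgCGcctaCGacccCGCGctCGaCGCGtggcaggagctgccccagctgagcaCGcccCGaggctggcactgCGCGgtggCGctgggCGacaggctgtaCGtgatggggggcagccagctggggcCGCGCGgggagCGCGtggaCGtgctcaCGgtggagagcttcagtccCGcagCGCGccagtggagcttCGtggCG
Near Arhgap5, chr12:52503594-52503893: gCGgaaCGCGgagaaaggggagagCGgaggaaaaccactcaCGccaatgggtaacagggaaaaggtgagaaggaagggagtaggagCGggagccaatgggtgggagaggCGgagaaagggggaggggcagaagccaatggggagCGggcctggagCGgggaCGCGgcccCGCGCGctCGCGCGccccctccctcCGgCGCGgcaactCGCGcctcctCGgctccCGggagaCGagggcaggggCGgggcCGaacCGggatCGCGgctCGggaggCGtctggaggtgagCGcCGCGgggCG
Basp1, chr15:25364303-25364602: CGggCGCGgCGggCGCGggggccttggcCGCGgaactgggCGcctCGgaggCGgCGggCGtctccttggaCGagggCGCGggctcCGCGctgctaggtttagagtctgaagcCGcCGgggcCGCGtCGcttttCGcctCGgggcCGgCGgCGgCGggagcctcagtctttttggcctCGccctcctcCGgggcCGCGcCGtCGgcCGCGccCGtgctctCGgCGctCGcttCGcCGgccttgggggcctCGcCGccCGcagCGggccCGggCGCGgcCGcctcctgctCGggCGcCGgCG

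The last 4 windows come from loci called between Adult and TAC. Those of Ptprd and Cilp2 had a peak in both TAC lists and in no Adult list, and those of Dll3 and the intergenic locus near Tlk2 the reverse. They held 53, 38, 49 and 32 CpG. The Cilp2 window itself lay under a peak of TAC replicate 1 alone and the Dll3 window under a peak of Adult replicate 2 alone.
Ptprd, chr4:76449667-76449966: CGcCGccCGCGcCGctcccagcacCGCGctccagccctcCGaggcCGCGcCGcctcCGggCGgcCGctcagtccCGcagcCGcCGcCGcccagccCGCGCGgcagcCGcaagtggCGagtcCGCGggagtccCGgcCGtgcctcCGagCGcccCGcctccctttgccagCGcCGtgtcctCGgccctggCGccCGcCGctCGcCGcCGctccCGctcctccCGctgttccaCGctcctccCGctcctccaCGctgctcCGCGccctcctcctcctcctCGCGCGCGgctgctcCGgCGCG
Cilp2, chr8:69881338-69881637: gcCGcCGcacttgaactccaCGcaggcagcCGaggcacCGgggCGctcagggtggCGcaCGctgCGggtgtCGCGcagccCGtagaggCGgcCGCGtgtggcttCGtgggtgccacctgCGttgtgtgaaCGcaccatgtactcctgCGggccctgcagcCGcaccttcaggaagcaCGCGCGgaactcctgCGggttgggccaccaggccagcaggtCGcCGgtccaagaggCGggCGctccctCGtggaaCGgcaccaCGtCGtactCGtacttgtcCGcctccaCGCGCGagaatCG
Dll3, chr7:28294539-28294838: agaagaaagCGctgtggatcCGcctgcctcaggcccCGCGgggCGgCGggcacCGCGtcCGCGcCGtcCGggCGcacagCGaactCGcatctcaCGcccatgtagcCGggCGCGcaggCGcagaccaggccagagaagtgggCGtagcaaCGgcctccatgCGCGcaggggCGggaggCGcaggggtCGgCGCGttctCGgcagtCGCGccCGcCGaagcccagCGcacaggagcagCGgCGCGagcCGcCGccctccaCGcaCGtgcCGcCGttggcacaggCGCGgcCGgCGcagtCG
Near Tlk2, chr11:105164811-105165110: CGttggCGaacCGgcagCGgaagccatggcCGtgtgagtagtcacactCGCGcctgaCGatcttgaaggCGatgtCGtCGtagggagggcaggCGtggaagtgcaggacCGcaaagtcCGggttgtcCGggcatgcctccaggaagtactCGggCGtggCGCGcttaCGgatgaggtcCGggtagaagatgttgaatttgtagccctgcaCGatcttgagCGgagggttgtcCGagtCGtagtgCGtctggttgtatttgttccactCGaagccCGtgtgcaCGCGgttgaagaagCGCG

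Most CpG-dense distal peaks were only moderately dense. Of the 6715 peaks, 4288 had 4 to under 5 CpG per 100 bp, 1288 had 5 to under 6, 815 had 6 to under 8 and 324 had 8 or more. The median density was 4.68 CpG per 100 bp, against 1.20 in the other distal peaks. The densest peak, with 17.0 CpG per 100 bp, lay on a coding exon of Zfp316 in TAC replicate 1. At the threshold, 1385 peaks had 4 to under 4.2 CpG per 100 bp and 1949 had 3.8 to under 4, and the closest peak outside it had 3.9986.

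The group was only in part made of CpG islands by the usual criteria. A GC content of 50% or more together with an observed over expected CpG ratio of 0.6 or more was met by 46.9% of the CpG-dense distal peaks and by 0.0564% of the other distal peaks. The median GC content was 58.4% against 47.2%, and the median observed over expected ratio 0.608 against 0.229. These values follow from the rule and are given without a test.

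CpG-dense distal peaks held fewer repeat-masked bases than the other distal peaks. Soft-masked bases, which mark repeats and low-complexity sequence in the reference, made up on average 10.49% to 16.6% of the CpG-dense peaks and 21.6% to 33.2% of the others, lower in 8 of 8 lists (exact sign-flip permutation test over the 8 samples, two-sided p = 0.00781, the smallest it can give). Their mean width was 638 to 837 bp against 606 to 803 bp, wider in 8 of 8 lists by 39.9 ± 24.1 bp (SD, n = 8), with the same exact p of 0.00781. The median width over all lists was 501 bp in both groups.

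Short motifs were counted in the central 300 bp of each peak, on both strands, and compared with 32851 RefSeq promoter windows of the same length from GRCm38. GGGCGG, the core of the GC box bound by SP factors, was in 28.7% of CpG-dense distal peaks, in 5.28% of the other distal peaks and in 35.7% of promoters. The E-box CACGTG was in 9.95%, 5.60% and 7.15%, and the cAMP response element TGACGTCA in 0.789%, 0.305% and 1.79%. GATAAG, which holds no CpG and is bound by factors named after it, was in 5.15%, 9.77% and 7.44%. The first 3 motifs hold a CpG themselves, so their shares follow CpG density, and a match is a description of letters only. TAC replicate 2 stood apart here as well, with GGGCGG in 39.4% of its CpG-dense distal peaks against 25.8% to 30.1% in the other 7 lists.

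CpG-dense distal peaks made up under 1% of distal peaks at each point. They were 0.765% and 0.672% of distal peaks in the E14.5 lists, 0.635% and 0.552% in the neonatal lists, 0.873% and 0.902% in the Adult lists and 0.9399% and 0.504% in the TAC lists. The means were 0.718% ± 0.066 at E14.5, 0.594% ± 0.059 in neonates, 0.887% ± 0.021 in Adult and 0.722% ± 0.308 after TAC (SD, n = 2). Both Adult values lay above both E14.5 values, and these above both neonatal values. TAC replicate 1 gave the highest share of all lists and TAC replicate 2 the lowest.

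Over all 8 lists the spread between points was not larger than between other pairings of the samples (exact permutation over 105 divisions into pairs, one-sided p = 0.457). Without TAC replicate 2 it was (exact p = 0.0190, 2 of 105 divisions), and without TAC replicate 1, which leaves replicate 2 as the lone TAC list, p was 0.0381 by the same exact test. The file headers name 2 ways of scaling. With the control scaled to the immunoprecipitated DNA, the shares were 0.765% and 0.672% at E14.5, 0.635% in neonates and 0.873% in Adult. With the reverse scaling they were 0.552% in neonates, 0.902% in Adult, and 0.9399% and 0.504% after TAC. Adult was above neonatal under both, with 1 list of each of these 2 points per scaling. The part of scaling in the result was not tested. Among peaks overlapped by the other replicate of the same point, the share was 0.854% at E14.5, 0.676% in neonates, 1.13% in Adult and 0.991% after TAC.

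**Figure D1:**
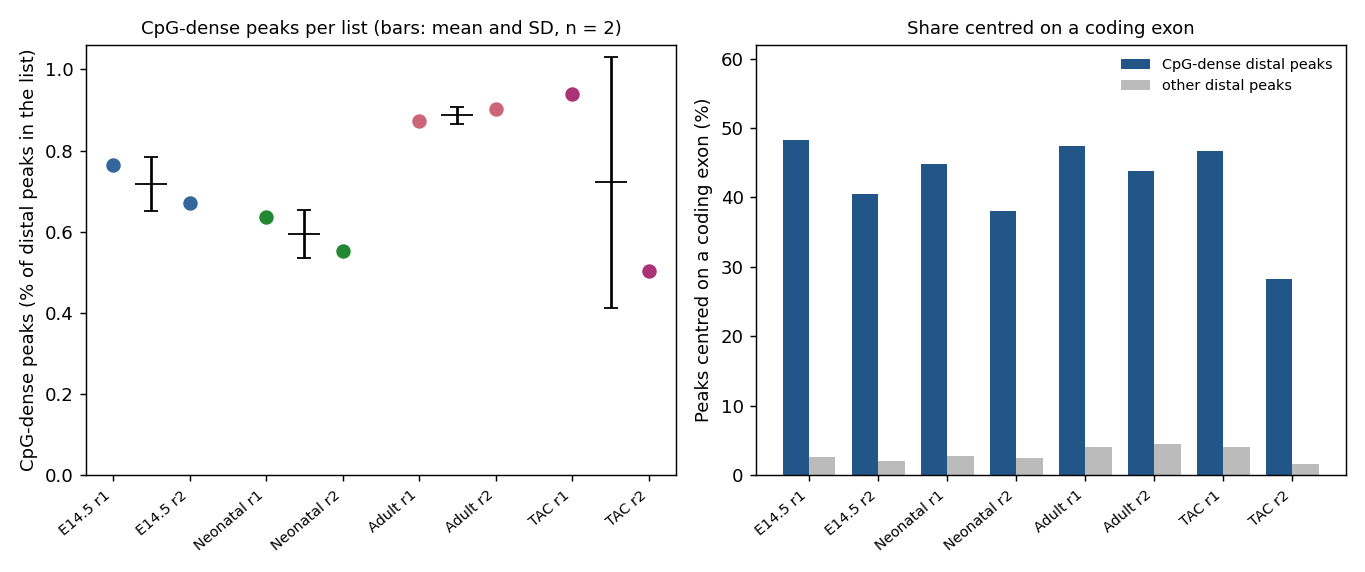
Left, the share of distal peaks that are CpG-dense (%) in each of the 8 lists, with the mean and SD of the 2 replicates of a point, from 0.504% in TAC replicate 2 to 0.9399% in TAC replicate 1. Right, the share of peaks centred on a coding exon (%) for CpG-dense distal peaks (28.2% to 48.3%) and other distal peaks (1.59% to 4.44%) in each list.

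To set CpG density on tiles that do not depend on where peaks lie, autosomes were divided into 500-bp tiles. The share of tiles whose centre lay in a peak was then taken. This share goes up with the number and width of the peaks in a list, so a ratio between tile classes of the same list is given as well. Away from promoters, 5-hmC peaks in the 7 lists other than TAC replicate 2 were most frequent at 3 to under 4 CpG per 100 bp. Over all tiles, repeat-masked ones included, they were less frequent at higher density. In these lists 12.96% to 17.2% of tiles with 3 to under 4 CpG per 100 bp were covered, 4.99% to 8.73% with 5 to under 6, and 6.98% to 13.45% with 8 or more. Within 2 kb of a TSS the coverage went down to 1.56% to 2.45% of tiles with 8 or more CpG per 100 bp in these 7 lists. TAC replicate 2 had 4.24%, 2.60% and 7.30% in the same distal classes and 4.74% in the densest class near a TSS.

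**Figure D2:**
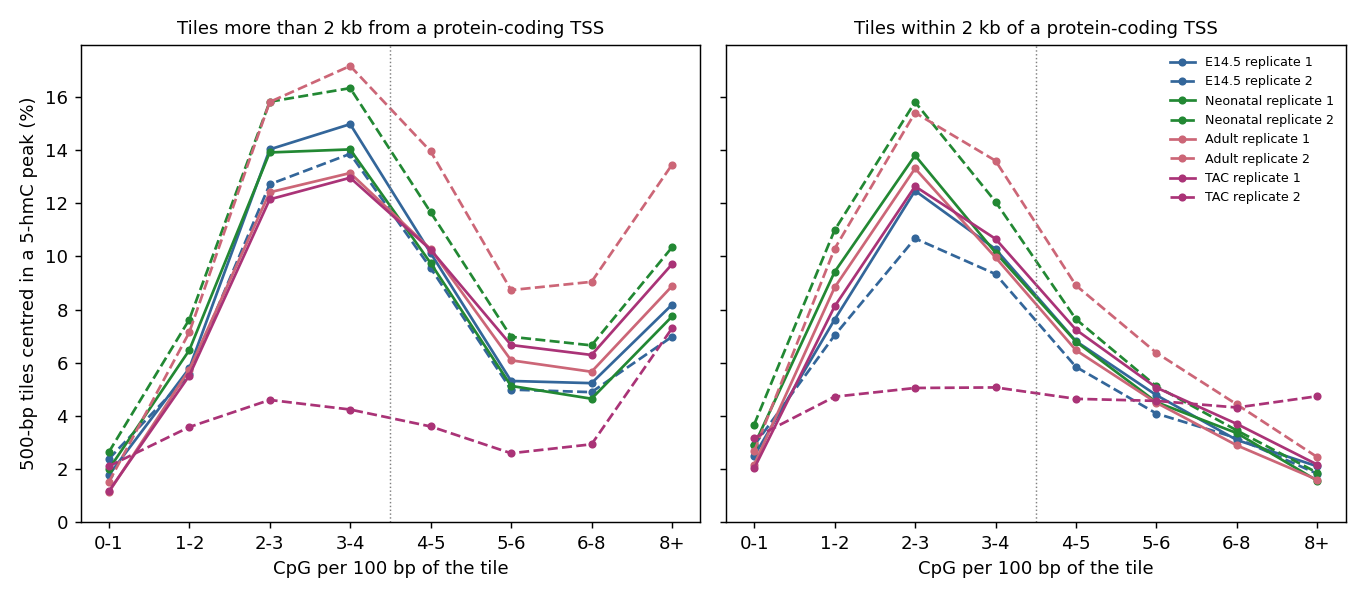
The share of 500-bp tiles centred in a 5-hmC peak (%) against CpG per 100 bp of the tile, more than 2 kb from a protein-coding TSS (left) and within 2 kb (right), with 1 line per list (solid, replicate 1; dashed, replicate 2) and a dotted line at 4 CpG per 100 bp. Repeat-masked tiles are included. Outside TAC replicate 2, distal coverage is highest at 3 to under 4 CpG per 100 bp and goes up again at 8 or more. In the same lists, coverage near a TSS is 1.56% to 2.45% at 8 or more.

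Coverage of the CpG-dense distal tiles was 7.98% and 7.47% at E14.5, 7.61% and 9.56% in neonates, 8.37% and 11.8% in Adult, and 8.65% and 3.46% after TAC. The groups overlapped apart from E14.5 and Adult, and the spread between points was not larger than between other pairings (exact permutation p = 0.543, and also 0.543 without TAC replicate 2). Leaving out TAC replicate 1 instead gave an exact p of 0.0476. Relative to tiles with 1 to under 2 CpG per 100 bp, CpG-dense tiles were covered 1.38- and 1.34-fold as often at E14.5, 1.18- and 1.25-fold in neonates, 1.46- and 1.65-fold in Adult, and 1.57- and 0.967-fold after TAC. The exact permutation p for this log2 ratio was 0.543, it was 0.0667 without TAC replicate 2 and 0.00952 without TAC replicate 1. In both kinds of scaling, with 1 list of each point, the ratio was higher in Adult than in neonates. It was 0.54 against 0.23 and 0.72 against 0.33 on the log2 scale.

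CpG-dense distal peaks lay on coding exons far more often than the other distal peaks. Part of this lies in the sequence that the rule selects, since coding exons held 13.4% of the distal tiles with 4 or more CpG per 100 bp and 0.760% of those with under 2, and the test of place does not take that into account. The share centred on a coding exon was 48.3% and 40.4% at E14.5, 44.7% and 38.1% in neonates, 47.3% and 43.8% in Adult, and 46.6% and 28.2% after TAC. Among the other distal peaks it was 1.59% to 4.44%. The difference of 39.2 ± 5.96 percentage points (SD, n = 8) went the same way in 8 of 8 lists (exact sign-flip permutation p = 0.00781, Benjamini-Hochberg adjusted p = 0.00893 over 8 places).

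The other places differed as well. CpG-dense peaks were less often in introns (23.8% to 31.5% against 47.3% to 59.8%) and between genes (16.3% to 32.9% against 32.2% to 48.1%), both lower in 8 of 8 lists. They were more often in 3′ UTRs (2.75% to 4.38% against 0.867% to 1.61%), at transcription termination sites (2.12% to 3.73% against 1.13% to 1.68%), at the TSS of a non-coding transcript (1.14% to 4.51% against 0.307% to 0.364%) and in exons of non-coding transcripts (0.828% to 1.48% against 0.239% to 0.321%), each higher in 8 of 8 lists. All 6 had an adjusted p of 0.00893 by the exact test. Only the 5′ UTR did not pass (adjusted p = 0.352, exact test).

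The place of the CpG-dense peaks did not differ between points beyond the replicates. The coding exon share averaged 44.3% ± 5.5 at E14.5, 41.4% ± 4.7 in neonates, 45.6% ± 2.5 in Adult and 37.4% ± 13.002 after TAC (SD, n = 2), and the intergenic share 20.9% ± 2.2, 19.54% ± 3.0, 17.3% ± 1.3 and 25.1% ± 11.1. The exact permutation p was 0.762 for coding exons, 0.438 for introns and 0.705 for intergenic peaks, and the adjusted p was 0.762 for each of the 8 places. TAC replicate 2 had the fewest peaks on coding exons and the most between genes of all lists.

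The coding exons under CpG-dense peaks were long and were often the last of the gene. Their median length was 638 to 913 bp per list, against 174 to 204 bp for the exons under other distal peaks. Exons over 500 bp made up 60.2% to 74.3% against 23.1% to 26.1%. The last coding exon held 31.9% to 37.9% of the coding exon peaks against 14.0% to 17.9%, the first 6.31% to 11.8% against 4.43% to 5.52%, the only coding exon of a transcript 5.07% to 9.03% against 1.98% to 3.62%, and internal exons 47.2% to 52.7% against 74.8% to 77.99%. Each difference went the same way in 8 of 8 lists (exact sign-flip p = 0.00781, adjusted p = 0.00781 over 6 measures). The rule counts CpG over the whole peak, and the median peak width was 501 bp. A short exon makes up less of such a peak than a long one, so exon length and rank are not independent of the rule. The tests do not take that into account. Along gene bodies divided into 5 equal parts, 40.7% of the positions of CpG-dense loci were in the part furthest from the TSS and 7.76% in the part nearest to it, whereas all distal loci had 20.9% and 18.1%. The part nearest the TSS is also where the 2 kb limit removes loci of short genes.

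The coverage of CpG-dense DNA also differed by place. Of the CpG-dense distal tiles, 3486 were centred on coding exons, 6359 in introns and 14572 between genes. On coding exons the share in a peak was 26.2% and 19.3% at E14.5, 24.6% and 28.0% in neonates, 29.5% and 41.9% in Adult, and 31.4% and 9.06% after TAC. In introns it was 9.64% to 14.8% in the 7 lists other than TAC replicate 2, which had 4.18%. Between genes it was 1.57% to 3.20% in all 8 lists. CpG-dense tiles on coding exons were thus covered 5.77- to 16.1-fold as often as those between genes and 1.797- to 2.94-fold as often as those in introns, higher in 8 of 8 lists (exact sign-flip permutation of the log2 ratio, p = 0.00781, adjusted p = 0.0134 over 12 ratios).

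Much of the intergenic CpG-dense sequence was repeat-masked, and 4477 of the 14572 tiles remained when tiles over 50% soft-masked were left out. These were covered in 4.29% to 8.58%, CpG-dense intron tiles in 6.84% to 24.6%, and the ratio of coding exons to intergenic tiles was 2.11 to 5.82 and to introns 1.13 to 1.71, still higher in 8 of 8 lists (exact p = 0.00781, adjusted p = 0.0134). Reads of mapping quality under 10 had been removed before peaks were called, and the part of mappability in the coverage of repeats was not tested. At 2 to under 4 CpG per 100 bp the coding exon to intron ratio was 0.771 to 1.21 over all tiles and went either way (exact p = 0.359, adjusted p = 0.431). The coding exon to intergenic ratio was above 1 in CpG-poorer tiles too. Over all tiles it was 1.304 to 3.43 at 2 to under 4 and 1.09 to 4.53 under 2 (exact p = 0.00781, adjusted p = 0.0134 for each). Without the masked tiles it was 0.954 to 2.485 and 1.201 to 4.203, which overlaps the range in CpG-dense tiles. A higher coverage of coding exons than of intergenic DNA was thus not limited to CpG-dense tiles. Coding exon coverage of CpG-dense tiles averaged 22.7% ± 4.9 at E14.5, 26.3% ± 2.4 in neonates, 35.7% ± 8.8 in Adult and 20.3% ± 15.8 after TAC (SD, n = 2). These values were not adjusted for the number or width of the peaks in a list. The spread between points was within that of other pairings (exact permutation p = 0.514, and 0.333 without TAC replicate 2).

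**Figure D3:**
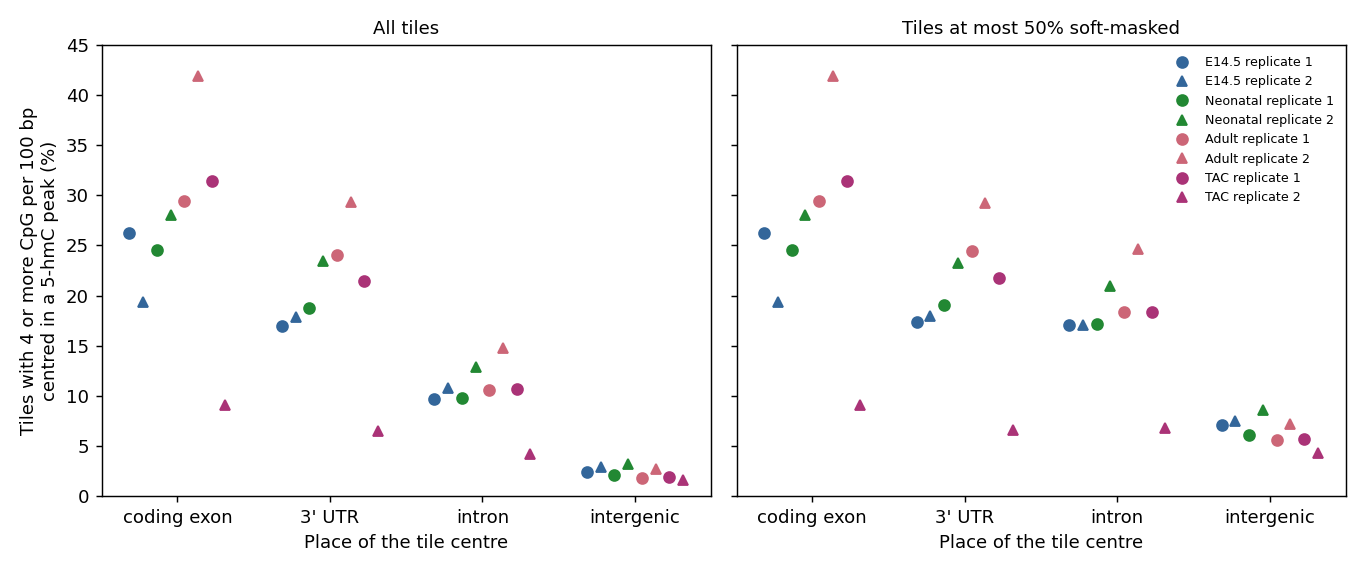
The share of CpG-dense tiles more than 2 kb from a protein-coding TSS that were centred in a 5-hmC peak (%), by place of the tile and list (circles, replicate 1; triangles, replicate 2), for all tiles (left) and for tiles at most 50% soft-masked (right). Of the 4 places plotted, coding exon tiles are the most covered in each list, from 9.06% in TAC replicate 2 to 41.9% in Adult replicate 2, and intergenic tiles the least.

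The peaks were distal only in terms of the annotation. The nearest protein-coding TSS was a median of 15.8 kb away, against 39.1 kb for other distal peaks, and 18.03% of CpG-dense peaks lay at 2 to 5 kb, 42.7% at 10 to 50 kb and 8.61% beyond 100 kb. A TSS of any curated RefSeq transcript, non-coding ones included, lay within 2 kb of 4.44% of them. With the wider GENCODE M21 annotation, a TSS of any transcript of a protein-coding gene lay within 2 kb of 24.8% of the CpG-dense peaks and of 6.69% of the other distal peaks, and a TSS of any transcript of any gene within 2 kb of 34.8% and 11.6%. GENCODE counts partial transcripts that start inside genes. The higher coding exon share remained under each of these sets of TSS in 8 of 8 lists (exact p = 0.00781).

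CpG-dense distal peaks were found again in the other replicate more often than the other distal peaks, on the average of both directions. At E14.5, 48.0% of the replicate 1 peaks were overlapped in replicate 2 and 51.4% of the replicate 2 peaks in replicate 1. The corresponding values were 56.5% and 44.6% in neonates, 62.6% and 40.3% in Adult, and 22.4% and 40.2% after TAC. Averaged over both directions, the CpG-dense peaks had 49.7%, 50.5%, 51.4% and 31.3% at the 4 points and the other distal peaks 41.7%, 44.4%, 39.9% and 20.8%. The CpG-dense peaks were higher by 6.09 to 11.6 percentage points at 4 of 4 points (exact sign-flip permutation over the 4 points, two-sided p = 0.125, the smallest it can give). With an overlap of 50% of both peaks required, the CpG-dense peaks had 37.3%, 34.6%, 33.0% and 8.53%. The other distal peaks then had 31.4%, 32.3%, 24.5% and 3.74%. CpG-dense peaks were also wider, and width was not adjusted for.

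Replicates of a point did not share CpG-dense peaks more than samples of different points did. The mean overlap within points was 45.7%, and 40 of the 105 divisions into pairs gave as much or more (exact permutation, one-sided p = 0.381, and 0.4 without TAC replicate 2). For the other distal peaks the mean was 36.7%, and 23 of the 105 divisions gave as much or more (same exact permutation, one-sided p = 0.219). This test treats all pairings as alike, whereas replicate 1 had the higher coding exon share of the CpG-dense peaks at 4 of 4 points. The highest overlap was that of E14.5 replicate 2 with neonatal replicate 2, where 72.3% of the E14.5 peaks were overlapped. Between E14.5 and Adult the overlap was 46.6% for CpG-dense and 34.2% for other distal peaks, between neonatal and Adult 50.5% and 38.6%, and between Adult and TAC replicate 1 53.2% and 39.9%. Averaged over both directions, CpG-dense peaks had the higher overlap in each pair of samples from different points, by 3.37 to 15.996 percentage points. In a single direction there were 2 exceptions, since 36.6% of the CpG-dense and 39.4% of the other peaks of Adult replicate 2 were overlapped in neonatal replicate 1, and 22.8% and 25.9% in TAC replicate 2. TAC replicate 2 overlapped 19.3% to 23.8% of the CpG-dense peaks of the other lists.

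**Figure D4:**
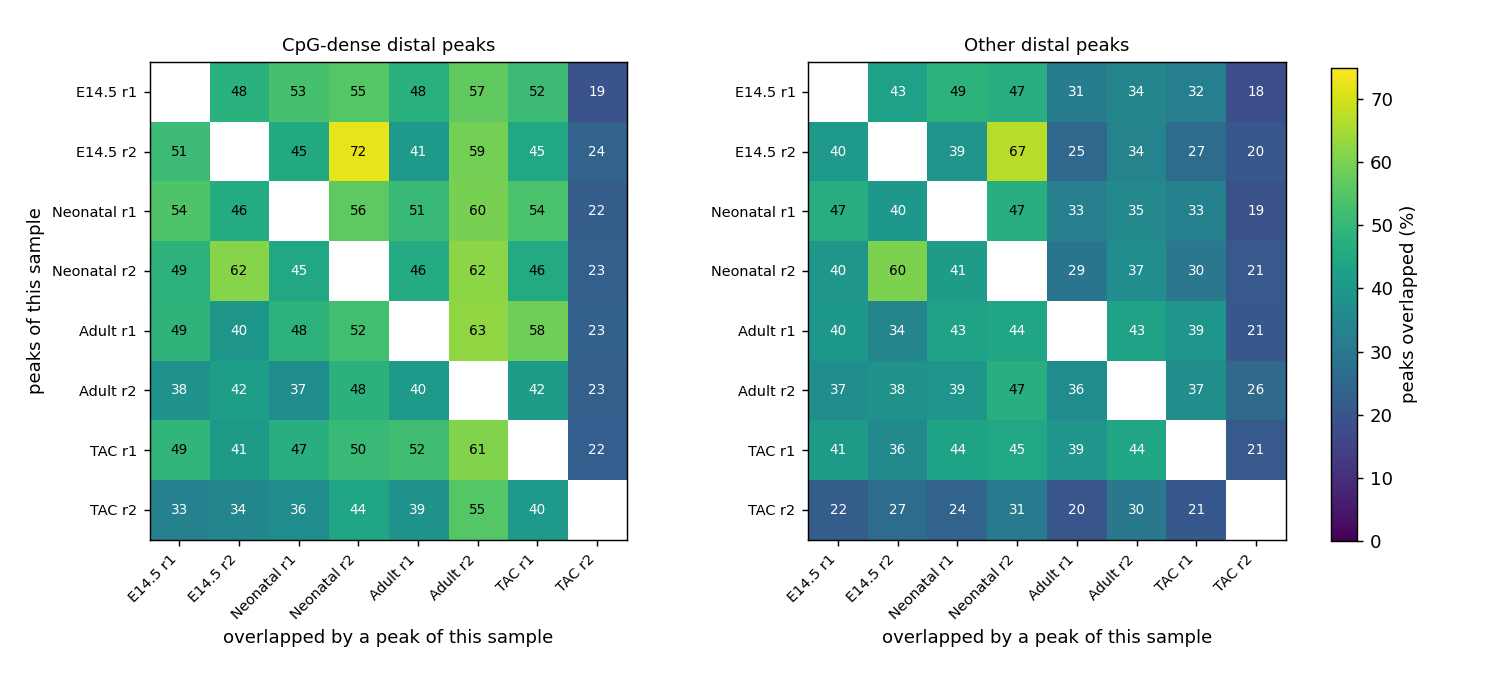
The share of peaks of each list (rows) overlapped by at least 1 bp by a peak of another list (columns), in %, for CpG-dense distal peaks (left) and other distal peaks (right). The column of TAC replicate 2 holds the lowest value of each other list in both panels, and E14.5 replicate 2 in neonatal replicate 2 is the highest value at 72.3%.

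Merged over the 8 lists, the CpG-dense peaks lay in 3601 loci, out of 377954 distal loci. A locus was taken as CpG-dense when its densest distal peak reached 4 CpG per 100 bp, so a locus with peaks in more samples had more chances to qualify, and the counts below are to be read with that in mind. A peak was present in all 8 samples at 351 CpG-dense loci (9.75%), against 1.71% of all distal loci, and in 1 sample at 763 (21.2%), against 46.9%. The loci found in all 8 samples were wide, with a median of 4653 bp against 501 bp for those found in 1 sample, and 52.1% had their densest peak on a coding exon against 31.6%. Only 8.83% of the loci found in all 8 samples were intergenic, against 32.9% of those found in 1. Over all distal loci the same order was seen between loci found in all 8 samples and in 1. The median width was 3306 bp against 501 bp, with 8.54% against 2.33% on a coding exon and 24.5% against 49.1% between genes.

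The densest locus shared by all 8 samples lay in Unc45b, which encodes a chaperone of striated muscle myosin. Its peak of 2929 bp in neonatal replicate 1, at chr11:82930069-82932997 in an intron, held 428 CpG, or 14.6 per 100 bp. Peaks covered 5004 and 3401 bp of the locus at E14.5, 3578 and 4605 bp in neonates, 4860 and 3477 bp in Adult, and 4744 and 1643 bp after TAC, so that only TAC replicate 2 was well below the others. The window printed above from this locus is the tandem repeat.

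The remaining 7 of the 8 densest shared loci lay in Arhgef33, Ccdc102a, Psd, Sobp and Grrp1 and between genes near Macf1 and 1700001O22Rik, with 11.7 to 14.0 CpG per 100 bp. Arhgef33 belongs to a family of guanine nucleotide exchange factors, Psd is an exchange factor for the GTPase ARF6, and Macf1 encodes a linker of microtubules and actin. The densest peak of each of these 7 was called in TAC replicate 2, and the same bases were under a peak in all 8 samples at Arhgef33, in 7 at Ccdc102a and Psd, in 5 at Sobp, in 4 near 1700001O22Rik and in 2 near Macf1 and at Grrp1. At the Ccdc102a locus, chr8:94912623-94915001, peaks covered 1954 and 818 bp at E14.5, 1577 and 2089 bp in neonates, 1552 and 941 bp in Adult, and 1277 and 501 bp after TAC. Both neonatal widths lay above those of Adult and TAC, and the E14.5 widths overlapped those of each other point.

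A change between points was called at a locus with a peak in both replicates of 1 point and in neither of the other. With 2 samples a group the smallest two-sided exact p is 0.333, so these calls carry no test and are read against the share called over all 377954 distal loci. From E14.5 to Adult, 239 CpG-dense loci (6.64%) were called gained and 176 (4.89%) lost, against 3.29% and 4.9% of all distal loci. From neonatal to Adult the counts were 172 (4.78%) gained and 136 (3.78%) lost, against 2.37% and 5.07%. These shares depend on how many loci could be called, since 42.96% of CpG-dense and 71.4% of all distal loci had a peak in both replicates of no point. Among loci with a peak in both replicates of at least 1 of the 2 points compared, the order for gains turned round. From E14.5 to Adult 13.6% of such CpG-dense loci were gained and 10.04% lost, against 15.7% and 23.4% of such distal loci, and from neonatal to Adult 9.91% and 7.83%, against 10.9% and 23.4%. The counts also moved with single lists. Without E14.5 replicate 2, 375 CpG-dense loci were called gained and 388 lost from E14.5 to Adult, and without neonatal replicate 1, 323 were called gained and 339 lost from neonatal to Adult, so that lost loci were then the more numerous.

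From E14.5 to neonatal, 114 CpG-dense loci (3.17%) were called gained and 82 (2.28%) lost, against 2.46% and 1.52% of all distal loci. From Adult to TAC, 41 (1.14%) were called gained and 204 (5.67%) lost, against 1.07% and 3.05%. The lost calls at this step rest on both TAC lists. With TAC replicate 1 alone as the TAC point, 308 loci were called lost and 292 gained, and with TAC replicate 2 alone 580 were called lost and 227 gained. Among loci complete at 1 of the 2 points or both, CpG-dense loci were called less often than all distal loci here as well, with 7.10% gained and 5.11% lost from E14.5 to neonatal, against 11.1% and 6.84%, and 2.79% gained and 13.9% lost from Adult to TAC, against 7.36% and 20.9%.

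Gained and lost loci lay at different places. Of the 239 loci gained from E14.5 to Adult, 109 (45.6%) had their densest peak on a coding exon and 36 (15.1%) between genes. Of the 176 lost, 49 (27.8%) were on a coding exon and 58 (33.0%) between genes. Over all distal loci the same order was seen, with 7.79% of gained and 2.06% of lost loci on a coding exon. The lost loci held more soft-masked bases, 14.8% against 8.72%, and so did the lost among all distal loci, 30.7% against 16.6%.

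The densest loci gained from E14.5 to Adult were in Gal3st3, Klhl31, Begain and Dll3. At Gal3st3, a sulfotransferase gene, no E14.5 list had a peak at chr19:5305943-5308053, whereas peaks covered 769 and 501 bp in neonates, 834 and 2111 bp in Adult and 914 bp in TAC replicate 1, and none in TAC replicate 2. At a coding exon of Klhl31, which encodes a Kelch-like protein of striated muscle, peaks covered 1245 and 1184 bp in Adult, 753 and 501 bp after TAC and 501 bp in neonatal replicate 2, and the other 3 lists had none. Begain, which encodes a partner of synaptic guanylate kinases, had 501 and 2061 bp in Adult and 501 bp in neonatal replicate 1 and TAC replicate 1. Dll3, a divergent Notch ligand, had 501 and 631 bp in Adult and none in the other 6 lists.

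The densest loci lost from E14.5 to Adult lay near Arhgap5, in Basp1, in Neurl1a and near Erfl. The intergenic locus chr12:52503400-52504073, whose nearest TSS is that of Arhgap5, a GTPase-activating protein gene, had 501 bp of peak in each E14.5 list and 629 bp in neonatal replicate 2, and none in the other 5. Basp1, a membrane protein known from neurons, had 2015 and 501 bp at E14.5, 1358 and 630 bp in neonates, none in Adult and 1518 bp in TAC replicate 1. Neurl1a, a ubiquitin ligase of the Neuralized family, had 501 and 1209 bp at E14.5, 1256 and 1367 bp in neonates, none in Adult and 501 bp in each TAC list. It was therefore also among the loci called gained from Adult to TAC.

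The densest loci gained from Adult to TAC lay in Ptprd, Cilp2 and Neurl1a and near Thsd4. Each had 501 to 710 bp of peak in the TAC lists and none in Adult. Ptprd, a receptor tyrosine phosphatase, also had 501 bp in E14.5 replicate 1 and neonatal replicate 1, and the locus near Thsd4 had 501 to 673 bp in all 4 E14.5 and neonatal lists. Cilp2, a matrix protein, had 501 bp in neonatal replicate 2. None of the 4 was free of peaks at the earlier points.

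The densest loci lost from Adult to TAC lay in Dll3, near Tlk2, in Tbx3 and in Oprd1. Tbx3 encodes a T-box repressor of the cardiac conduction system. Its coding exon locus at chr5:119680254-119681310 had 790 and 638 bp of peak at E14.5, 700 and 960 bp in neonates, 1003 and 839 bp in Adult and none in either TAC list. The 6 lists before TAC ranged from 638 to 1003 bp here and the TAC lists were both empty. Oprd1, the delta opioid receptor gene, had 501 and 1257 bp in Adult and 501 bp in neonatal replicate 1.

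**Figure D5:**
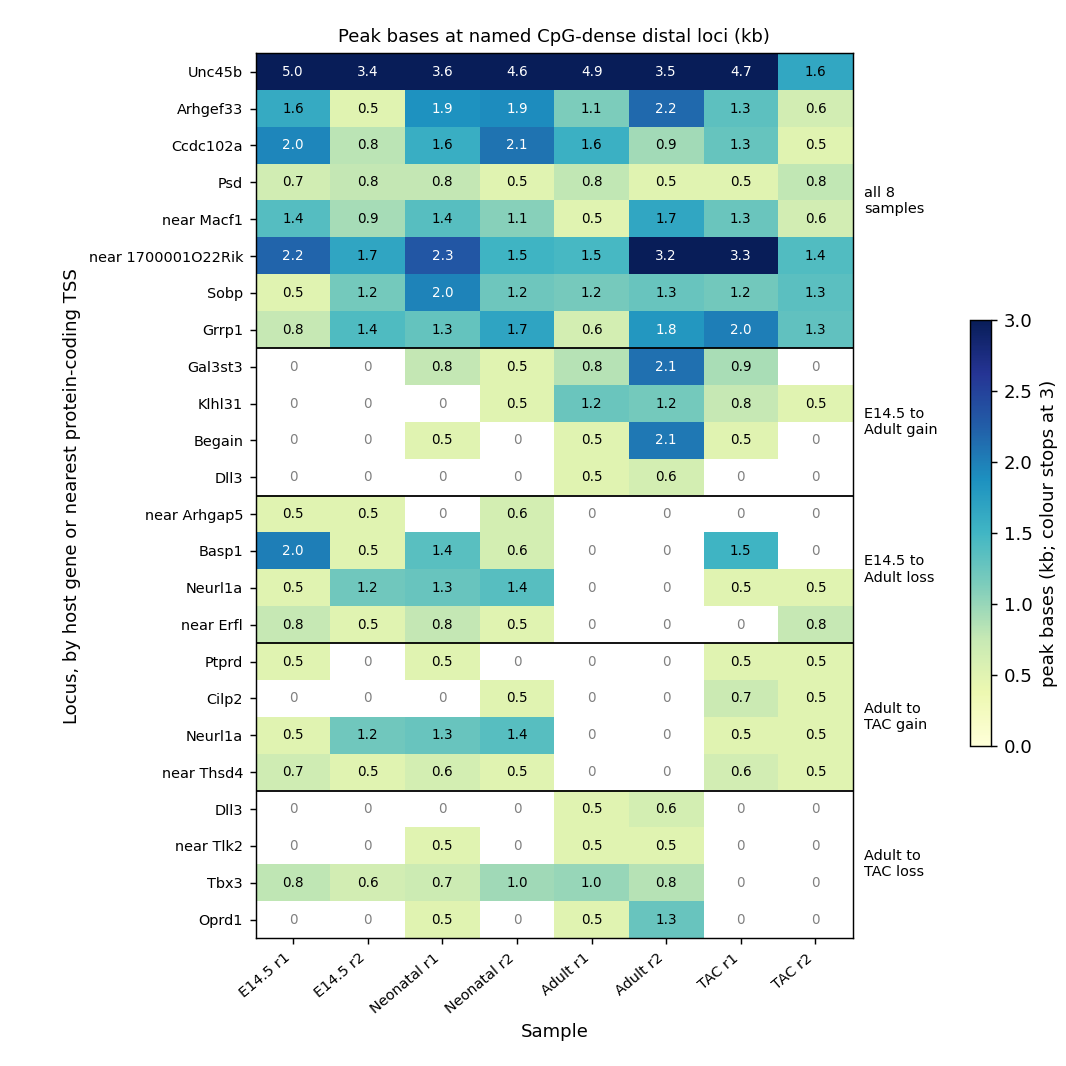
Bases covered by peaks (kb) in each of the 8 lists at the densest CpG-dense distal loci, named by host gene or nearest protein-coding TSS and grouped by the call that chose them, with 0 where no peak was listed. The groups are fixed by the calls, and the loci shared by all 8 samples range from 0.5 to 5.0 kb, with Neurl1a and Dll3 shown under 2 calls each.

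CpG-dense loci were found in the bodies of 2092 of 20021 autosomal protein-coding genes (10.4%). Of the 3601 loci, 2592 (72.0%) had their densest peak inside a gene body, against 50.9% of all distal loci. Most genes with such a locus had 1 (1674 genes), 313 had 2 and 105 had 3 or more. Genes with a CpG-dense locus had a median length of 32.02 kb, against 16.9 kb for all genes.

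The genes with the most CpG-dense loci were long, from 91.7 kb for Pcnt to 400.4 kb for Dst, and held 24 to 144 distal loci of any density. Fat1, a giant atypical cadherin, had 9 loci, 6 of them on coding exons. Zfhx3, a zinc-finger homeobox factor, had 8, with 6 on coding exons. Casz1, Dst, Prdm16, Rere and Ttn had 6 each, and Cit, Cux2, Myo10 and Pcnt had 5 each. All 6 loci of Ttn, which encodes the sarcomeric spring titin, and all 5 of Pcnt, the centrosomal pericentrin, were on coding exons, against 1 of 6 in Casz1, a zinc-finger factor needed for heart development, and 0 of 5 in Cit.

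Loci of the same gene differed in how many samples shared them. At the 6 Casz1 loci a peak was present at 5 loci in each of 7 lists and at 6 in TAC replicate 2, and 5 loci were covered in all 8 samples. At the 6 Ttn loci, 4 to 6 were covered in each list. At the 9 Fat1 loci, 4 and 3 were covered at E14.5, 3 and 3 in neonates, 5 and 5 in Adult, and 6 and 2 after TAC, and none was covered in all 8. At the 8 Zfhx3 loci, 2 and 5 were covered at E14.5, 3 and 5 in neonates, 2 and 7 in Adult, and 4 and 0 after TAC, so replicates of the same point differed most there.

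A locus is called matched below where a list had a peak over the densest CpG-dense peak of the locus itself. The loci of Myh7, Ldb3, Tbx2, Meis1, Cacna1c, Notch1, Hdac9 and Cdh5 did not have a peak at all 4 points and were chosen for mention after their values were seen. In the sarcomere and Z-disc list, 7 of 32 genes (21.9%) had a CpG-dense locus, with 17 loci in all and 13 of these on coding exons. They included Ttn, Speg, Myh7b, Myh7, Ldb3 and Flnc. Myh7 encodes the slow β-myosin heavy chain, which mouse ventricles use before birth and replace by Myh6 afterwards. Its coding exon peak at chr14:54979111-54979751, with 4.99 CpG per 100 bp, was present in all 4 E14.5 and neonatal lists and in none of the 4 Adult and TAC lists. An intronic peak of Ldb3, a Z-disc protein, was present in the same 4 lists and in none of the other 4, although the wider locus also held a peak elsewhere in 1 more list.

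Speg, a kinase of the triad and Z-disc, carried 4 CpG-dense loci. The densest, on a coding exon at chr1:75388212-75388712 with 11.6 CpG per 100 bp, was under a peak in all 8 lists, and the other 3 in 6 or 7. The Myh7b peak at chr2:155628573-155631366 was under a peak in all 8 lists as well. Flnc, which encodes filamin C of the Z-disc and costamere, had a coding exon peak present in all 4 Adult and TAC lists and in none of the E14.5 and neonatal lists, while peaks elsewhere in the locus were present in all 8.

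In the list of ion channels and calcium handling, 10 of 23 genes (43.5%) had a CpG-dense locus. Jph2 encodes junctophilin 2, which ties the sarcoplasmic reticulum to the T-tubule, and its coding exon peak at chr2:163338964-163339843, with 9.43 CpG per 100 bp, was matched in all 8 lists. A second Jph2 coding exon was matched in the 7 lists other than TAC replicate 2. An intronic Ank2 peak was matched in all 8 lists, Ank2 being the ankyrin that anchors membrane transporters. Cacna1c, the pore of the L-type calcium channel, had a coding exon peak in no E14.5 list, in all 4 neonatal and Adult lists and in TAC replicate 2. The intron peak of Hcn4, a pacemaker channel, was matched in 6 lists, all but Adult replicate 1 and TAC replicate 2.

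Of 34 cardiac transcription factors, 12 (35.3%) had a CpG-dense locus, with 23 loci. Zfpm1, a cofactor of GATA factors, had a coding exon peak at chr8:122335587-122336859 with 10.53 CpG per 100 bp that was matched in all 8 lists. A Tbx5 coding exon was matched in 7, all but TAC replicate 2. A Tbx2 coding exon with 6.79 CpG per 100 bp was matched in neither E14.5 list, in both neonatal lists and in Adult and TAC replicate 1. The Meis1 intron peak at chr11:19007285-19008375 was matched in all 6 lists before TAC and in neither TAC list. The densest Tbx3 locus had the same pattern, but a second Tbx3 coding exon locus, with 5.79 CpG per 100 bp, was matched in 5 lists, with 980 bp of peak in TAC replicate 1. Gata4, Nkx2-5, Mef2c and Hand2 were among the 22 genes without a CpG-dense locus.

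Of 26 autosomal extracellular matrix genes, 14 (53.8%) had a CpG-dense locus, the highest share of the 7 lists. Lamc1 and Hspg2, a laminin chain and perlecan of the basement membrane, were matched in 7 lists each. Of the 23 matrix loci, 7 had a peak in 1 list alone. Large membrane receptors had 10 of 21 genes (47.6%), with 16 of 22 loci on coding exons. A Notch1 peak at the start of a non-coding transcript was matched in neither E14.5 list, in all 4 neonatal and Adult lists and in TAC replicate 1. A Plxnb2 intron peak was matched in 7 lists, all but TAC replicate 2. Length was not adjusted for in any of these shares. The median gene length was 58.6 kb for the matrix list, 65.1 kb for the receptors, 77.9 kb for the chromatin list and 59.5 kb for the ion channels. It was 27.7 kb for the sarcomere and Z-disc list, 24.5 kb for the imprinted genes and 16.8 kb for the cardiac transcription factors. For all genes it was 16.9 kb, and 10.4% of all genes had a CpG-dense locus.

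Of 33 chromatin and DNA methylation genes, 13 (39.4%) had a CpG-dense locus. Tet3, a dioxygenase that makes 5-hmC, had a coding exon peak with 4.69 CpG per 100 bp that was matched in 6 lists, all but E14.5 replicate 2 and TAC replicate 2. Tet1, Tet2 and the 3 Dnmt genes of the list had none. Peaks of Kdm6b, a histone H3K27 demethylase, at chr11:69398993-69401725 and of Chd7, a chromatin remodeller, were matched in all 8 lists. The densest peak of the list, with 14.0 CpG per 100 bp in an Hdac9 intron, was matched in Adult replicate 2 and TAC replicate 2 alone.

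Imprinted genes had a CpG-dense locus in 9 of 39 cases (23.1%), and 2 of their 10 loci lay on coding exons. The intronic peak of Igf2r at chr17:12741673-12742173, in the gene of the IGF2 clearance receptor, had 7.39 CpG per 100 bp and was matched in 6 lists, all but the replicate 1 lists of neonatal and Adult. The intronic peak of Grb10, an inhibitor of insulin signalling, was matched in 7 lists, all but Adult replicate 1. Imprinted loci carry DNA methylation on 1 parental copy, and the lists give no allele.

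Markers gave a limited check of the labelled cell type, because 5-hmC is not a measure of expression. Peaks covered 32.4% to 56.5% of the gene body of Myh6, the adult α-myosin heavy chain, at E14.5 and in neonates and 2.03% to 9.65% in Adult and TAC. Ttn was covered 14.2% and 5.75% at E14.5, 43.1% and 42.4% in neonates, 27.1% and 28.1% in Adult, and 28.95% and 7.27% after TAC, so the markers did not move together. Of the 5 fibroblast markers, Tcf21 had no peak in any list, Col1a2 was covered up to 1.39%, Pdgfra up to 6.51%, Vim up to 7.35% and Col1a1 up to 13.03%. Among the 4 endothelial markers, coverage went from 0.529% of Tek in TAC replicate 1 to 26.8% of Pecam1 in neonatal replicate 2. Pecam1 had 13.47% and 19.07% in Adult and 10.57% and 8.698% after TAC. In each of these 4 lists it was above the cardiomyocyte markers Myh6 and Tnnt2, the latter with 5.13% to 12.56%. Actn2 was above Pecam1 in all 4 lists, Ttn in all but TAC replicate 2, and Ryr2 in TAC replicate 1 only. Coverage in Adult and TAC thus did not set all cardiomyocyte markers above the endothelial ones. A CpG-dense locus was found in 1 of 5 cardiomyocyte markers (Ttn), 1 of 5 fibroblast markers (Col1a1) and 1 of 4 endothelial markers. The latter, a coding exon peak of Cdh5, which encodes the junctional protein VE-cadherin, was matched in both Adult lists and in no other. The part of non-myocytes in these peaks was not tested.

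CpG-dense distal peaks were unevenly spread over the chromosomes. They were most frequent on chromosomes 7, 11 and 8, with 4.41, 4.30 and 4.14 peaks per Mb over the 8 lists, and least frequent on chromosomes 13, 3 and 14, with 1.43, 1.52 and 1.54. On chromosome 7 they were 1.20% of distal peaks and on chromosome 13 0.378%. RefSeq lists enhancers tested in animals or cells as functional elements. Of the CpG-dense loci, 11 (0.305%) overlapped such an enhancer, against 0.187% of all distal loci. An enhancer scored in heart was overlapped by 1 CpG-dense locus (0.0278%) and by 152 of all distal loci (0.0402%). CpG-dense loci were wider, with a median of 1021 bp against 579 bp, and width was not adjusted for.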

How the data were processed

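5-hmC was profiled by hMeDIP-seq in CMCs of 4 points, with 2 biological replicates each. Of 19 samples in the labels, 8 had peak lists analysed here, and the other samples were not analysed here. According to the study's methods, the authors aligned reads to mm10 with BWA 0.7.4-r385, processed them with Picard, removed reads of mapping quality under 10 and called peaks in each replicate against input with HOMER in histone mode. The deposited score of every peak is 1, so peaks could not be ranked and the read depth behind a peak is unknown. Per the file headers, the immunoprecipitated DNA was scaled to the control in neonatal replicate 2, Adult replicate 2 and both TAC lists, and the control to the immunoprecipitated DNA in the other 4. The cause of this difference was not tested.

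CpG, GC and soft-masked bases were counted under each autosomal peak in the mm10 reference. Distances were taken from the peak centre to the TSS of 37949 curated RefSeq protein-coding transcripts of 20021 genes. Places followed the HOMER order of priority (TSS from 1 kb upstream to 100 bp downstream, TTS, coding exon, 5′ UTR, 3′ UTR, non-coding exon, intron, intergenic). Peaks were taken as overlapping from 1 bp. Points were compared by a one-sided exact permutation over the 105 ways to pair the 8 samples (smallest p = 0.00952), and peak groups within lists by an exact two-sided sign-flip permutation over samples or points, with Benjamini-Hochberg adjustment within families. The permutation p-values set the grouping by point against other pairings of these samples. The sign-flip p-values measure how consistent a difference was over these lists or points. The permutation and sign-flip tests were tested on simulated data. Python 3.11.15, numpy 2.4.6, pandas 2.3.3, matplotlib 3.10.9 and bedtools 2.31.1 were used.

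The genes named were the 8 with most CpG-dense loci, the 8 densest loci with a peak in all 8 samples, the 4 densest loci of each kind of call between E14.5 and Adult and between Adult and TAC, and genes of the lists with a locus present at all 4 points. Zfp316, Cux2, Myo10 and Pcnt, and the loci so described in the text, were named after their values were seen. The group of peaks, the gene lists and the tests were chosen with earlier results of these data known. Coverage by place, the exon measures and the wider GENCODE TSS set were added after seeing the data. Alternatives changed the CpG threshold, the window for counting CpG, the distance and set of TSS, repeats, tile size, overlap and samples. Some genes and 1 sequence are not reported here.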

Additional observations from a re-analysis of the deposited data

How the results depend on the processing

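The differences between CpG-dense and other distal peaks in coding exon, intron and intergenic share, soft-masked bases and width kept their direction and passed under each alternative run for them, with exact p of 0.0156, the smallest possible, when any list was left out. The comparisons over points did not pass with all 8 lists. Leaving out each replicate in turn gave exact permutation p from 0.0190 to 0.695 for the share of CpG-dense peaks, from 0.0476 to 0.819 for the coverage of CpG-dense tiles and from 0.00952 to 0.829 for its log2 ratio to CpG-poor tiles, and the 4 values past 0.05 came from leaving out TAC replicate 1 or 2. The depth behind a peak is unknown, so an absent peak is not an absence of 5-hmC.

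The numbers of called loci moved most. They are given for E14.5 to neonatal, neonatal to Adult, Adult to TAC and E14.5 to Adult in this order. Gained loci numbered 440, 664, 150 and 930 with 3 or more CpG per 100 bp, 37, 63, 20 and 86 with 5 or more, and 37, 62, 9 and 79 by the density of the whole locus. Lost loci numbered 360, 630, 898 and 855, then 23, 33, 67 and 44, then 32, 40, 60 and 57. With a peak within 1 kb taken as present, 74 loci were gained from Adult to TAC. Leaving out each replicate gave 266 to 316, 323 to 529, 82 to 292 and 375 to 579 gained and 176 to 340, 259 to 345, 308 to 617 and 279 to 388 lost loci, since 1 list then stands for a point.

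Same-numbered replicates are not said to share an animal or a day. The main tests did not pair the samples by these numbers, because the study's methods name no such block. The correlations of replicate differences between points were 0.393, 0.0655, 0.403, 0.160, 0.136 and -0.104, of which 4 of 6 were above 0.1. Whether same-numbered replicates share a batch was not tested. With a replicate block, the exact permutation p was 0.417 for the share of CpG-dense peaks, 0.333, 0.167 and 0.375 for their coding exon, intron and intergenic shares, 0.75 for tile coverage and 0.583 for its log2 ratio, and no call changed. The block was not run for differences taken within 1 list.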
